A study of Rattus norvegicus with 11 samples.

Results

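The 8 genes described here, Ms4a2, Mcpt8l2, Mcpt8l3, Fcer1a, Cpa3, Gata2, Hdc and Il4, are genes that basophils and mast cells are known to express. They were found by their symbols among 32623 genes measured by RNA-sequencing in peripheral WBCs, the cells left after the red cells of blood were lysed. Ms4a2, Mcpt8l2 and Mcpt8l3 were selected on their FPKM and counts in these rats, which had been seen to be higher in Nampt+ than in Nampt++ samples. The other 5 were added as further genes of the same cells. Values of the Nampt+ against Nampt++ comparison are therefore a description, and calls of these genes in it are not a test of them.

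The samples came from male Wistar rats, 7 weeks old when the experiment was set up. The CIA rats had received an emulsion of bovine type II collagen in incomplete Freund's adjuvant at the hind left paw and a boost of it on day 7. The 4 CIA rats were sampled at Nampt++ status, when Nampt was overexpressed, near day 8, and a second time at Nampt+ status, when it had returned to the level of healthy animals, near day 14. The authors set these statuses with their own PCR of Nampt, so that status and time since immunization cannot be told apart. The 3 normal healthy controls had no arthritis. The deposited extraction protocol speaks of retinas, against the sample sources and the paper. WBCs are what is assumed here.

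Basophils of the blood and mast cells of the tissues carry the high-affinity IgE receptor, which is built of an alpha chain that binds IgE, a beta chain that amplifies the signal and a shared gamma chain. When IgE on the receptor meets its antigen, the cells release granules with histamine and proteases, and basophils can make interleukin 4. Both are rare among blood cells or absent from them, so their transcripts make up a small part of WBC RNA. In bulk RNA of this kind, fewer cells of a type and less RNA per cell cannot be told apart.

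The genes cover each of these functions. Fcer1a (ENSRNOG00000009177, chromosome 13, 91730925 to 91737053, minus strand) encodes the alpha chain of the IgE receptor and Ms4a2 (ENSRNOG00000020993, chromosome 1, 227957302 to 227965386, minus strand) its beta chain. Mcpt8l2 (ENSRNOG00000049096, chromosome 15, 34622123 to 34625121, minus strand) and Mcpt8l3 (ENSRNOG00000049991, chromosome 15, 34644464 to 34694244, minus strand) encode granule serine proteases similar to Mcpt8, a protease of basophils. Cpa3 (ENSRNOG00000011181, chromosome 2, 105016626 to 105047984, minus strand) encodes carboxypeptidase A3 of the granules. Hdc (ENSRNOG00000010262, chromosome 3, 119057517 to 119075619, minus strand) encodes histidine decarboxylase, which makes histamine. Gata2 (ENSRNOG00000012347, chromosome 4, 120133713 to 120142488, plus strand) encodes a transcription factor of basophils, mast cells and blood progenitors, and Il4 (ENSRNOG00000007624, chromosome 10, 38963979 to 38969531, minus strand) the cytokine interleukin 4. These positions are those of the deposited table, whose genome build is not given in the sources used here.

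The DNA just before the starts of Mcpt8l2 and Mcpt8l3 is shown to make plain how alike it is. RefSeq's promoter table for the GRCr8 assembly holds 7 of the 8 genes, with Ms4a2 the exception. The 250 bases before the starts of Mcpt8l2 and Mcpt8l3 share a stretch of 182 bases that aligned without gaps, with 175 bases identical (96.2%). Capitals mark the 7 bases that differ, at chr15:33718231-33718412 for Mcpt8l2 and chr15:33673082-33673263 for Mcpt8l3, both on the plus strand of GRCr8.
Mcpt8l2: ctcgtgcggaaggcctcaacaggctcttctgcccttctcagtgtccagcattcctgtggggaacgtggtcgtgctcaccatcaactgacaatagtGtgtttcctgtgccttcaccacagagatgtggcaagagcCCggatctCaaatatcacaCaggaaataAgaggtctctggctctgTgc
Mcpt8l3: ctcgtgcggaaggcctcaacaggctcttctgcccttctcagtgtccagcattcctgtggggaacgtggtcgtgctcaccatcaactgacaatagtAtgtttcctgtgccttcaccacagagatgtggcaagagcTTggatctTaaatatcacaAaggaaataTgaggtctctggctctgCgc
The row of Mcpt8l3 held 7 transcripts over 49781 bases, while that of Mcpt8l2 held 1 transcript over 2999 bases. RefSeq also lists Mcpt8 in this cluster, which was not found under that symbol and was not analysed here. The transcripts themselves were not compared. How reads that match more than 1 gene were counted is not given in the sources used here, so the division of reads between Mcpt8l2 and Mcpt8l3 is uncertain.

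Because Gata2 was among the genes that moved together, the promoters were searched for the letters GATA with A or T before them and A or G after them. Both strands were read, and a match can overlap other motifs. In the window from 250 bases before to 50 bases after the start, 2 of the 7 genes with a sequence held a match (28.6%), against 10155 of 33469 promoters of the same length (30.3%). The share among the genes was thus close to that of all promoters. The 2 genes were Cpa3 and Fcer1a, whose 250 bases before the start are shown with the matches in capitals, from chr2:104673238-104673487 and chr13:88224680-88224929 on the minus strand of GRCr8.
Cpa3: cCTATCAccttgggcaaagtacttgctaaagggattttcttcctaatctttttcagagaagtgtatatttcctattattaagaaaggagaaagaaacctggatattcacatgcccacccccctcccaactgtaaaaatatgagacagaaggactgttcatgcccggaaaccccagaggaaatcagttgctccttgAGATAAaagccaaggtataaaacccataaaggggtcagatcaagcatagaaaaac
Fcer1a: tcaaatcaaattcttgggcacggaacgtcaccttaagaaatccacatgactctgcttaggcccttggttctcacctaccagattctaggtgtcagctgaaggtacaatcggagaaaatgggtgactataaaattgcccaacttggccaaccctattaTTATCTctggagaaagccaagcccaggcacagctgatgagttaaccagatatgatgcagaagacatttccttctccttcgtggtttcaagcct
Counted from the start, the matches begin at positions -249 and -55 in Cpa3 and -93 in Fcer1a.

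The 11 libraries held between 65340027 and 85819418 counts. Levels are given as FPKM, the fragments of a gene corrected for transcript length and library size. Hemoglobin transcripts of remaining red cells are part of that size. The 11 hemoglobin genes took 16.2% to 30.9% of the counts in controls, 6.84% to 37.3% in Nampt++ samples and 14.8% to 42.8% in Nampt+ samples. The lowest nonzero number of reads behind any value of the 8 genes was 15, for Cpa3 in the Nampt+ sample of rat 2, and the highest 20459, for Hdc in the Nampt+ sample of rat 4. Counting error was between 0.699% and 25.8% of a value. The group means rest on 3 or 4 animals, which limits them more.

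The genes were low on average and varied widely between samples. By the mean FPKM over 11 samples, which is scaled by gene length, Hdc was highest at 31.7, followed by Mcpt8l2 at 8.89, Mcpt8l3 at 7.39, Gata2 at 2.75, Fcer1a at 1.82, Ms4a2 at 1.31, Cpa3 at 0.677 and Il4 at 0.0633. Hdc stood above Mcpt8l2 in 11 of 11 samples and Mcpt8l3 above Gata2 in 11 of 11, while Mcpt8l2 stood above Mcpt8l3 in 10, Gata2 above Fcer1a in 10 and Ms4a2 above Cpa3 in 9. Fcer1a stood above Ms4a2 in 7 of 11 samples, so the order of the receptor chains was not the same in all samples. For the 7 genes other than Il4, the highest sample was between 7.87 and 20.6 times the lowest. The Nampt+ sample of rat 4 was the highest of the 11 samples for each of the 8 genes except Fcer1a, for which the Nampt+ sample of rat 3 was higher.

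Both chains of the IgE receptor were highest in the Nampt+ samples of rats 3 and 4. Ms4a2 stood at 0.664, 0.258, 0.91 and 0.427 FPKM in the Nampt++ samples of rats 1 to 4. In the Nampt+ samples of the same rats it stood at 1.17, 0.421, 2.64 and 5.12, and in controls 1 to 3 at 1.84, 0.268 and 0.72. Every rat had more Ms4a2 at Nampt+ than at Nampt++ status, but the groups overlapped, since rat 2 at Nampt+ status was below rats 1, 3 and 4 at Nampt++ status. The Nampt+ mean was 2.34 ± 2.07 (SD, n = 4), the Nampt++ mean 0.565 ± 0.284 (SD, n = 4) and the control mean 0.944 ± 0.812 (SD, n = 3). The ratio of Nampt+ to Nampt++ means was 4.14, and it was 2.49 without the Nampt+ sample of rat 4.

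Fcer1a, the alpha chain, stood at 0.805, 0.588, 2.29 and 0.35 FPKM at Nampt++ status in rats 1 to 4, and at 1.00, 0.414, 5.51 and 5.04 in their Nampt+ samples. The controls had 2.71, 0.411 and 0.874. Rat 2 had less Fcer1a at Nampt+ status and the other 3 rats had more, and the groups overlapped. The mean was 2.99 ± 2.65 at Nampt+ and 1.01 ± 0.874 at Nampt++ status (SD, n = 4 each), against 1.33 ± 1.21 in controls (SD, n = 3). The ratio of Ms4a2 to Fcer1a FPKM kept between 0.397 and 1.22 over the 11 samples, while Ms4a2 itself spanned a range of 19.8 times.

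The granule proteases were the genes with the highest levels after Hdc. Mcpt8l2 stood at 3.47, 4.75, 6.58 and 3.84 FPKM at Nampt++ status in rats 1 to 4, and at 5.75, 5.01, 10.2 and 27.3 in their Nampt+ samples, against 17.5, 8.33 and 5.05 in controls. Mcpt8l3 stood at 4.28, 2.61, 5.83 and 2.77 FPKM in the Nampt++ samples, at 4.09, 4.87, 8.95 and 24.1 in the Nampt+ samples and at 13.8, 6.22 and 3.81 in controls. Control 1 was second only to the Nampt+ sample of rat 4 for both. The mean of Mcpt8l2 was 12.1 ± 10.4 at Nampt+ and 4.66 ± 1.39 at Nampt++ status (SD, n = 4 each), against 10.3 ± 6.46 in controls (SD, n = 3). For Mcpt8l3 these were 10.5 ± 9.29, 3.87 ± 1.51 and 7.95 ± 5.23 (SD, same n). Without the Nampt+ sample of rat 4 the ratio of Nampt+ to Nampt++ means fell from 2.59 to 1.5 for Mcpt8l2 and from 2.71 to 1.54 for Mcpt8l3. The FPKM of Mcpt8l3 was between 0.55 and 1.23 times that of Mcpt8l2 in every sample.

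Cpa3, the granule carboxypeptidase, was near the limit of what these libraries show in most samples. It stood at 0.299, 0.575, 0.625 and 0.524 FPKM in the Nampt++ samples of rats 1 to 4, at 0.631, 0.122, 1.38 and 2.40 in their Nampt+ samples and at 0.522, 0.144 and 0.221 in controls. Only the Nampt+ samples of rats 3 and 4 exceeded 1 FPKM. The mean was 1.13 ± 0.988 at Nampt+ and 0.506 ± 0.144 at Nampt++ status (SD, n = 4 each), against 0.296 ± 0.199 in controls (SD, n = 3).

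Hdc, the histamine-making enzyme, had the widest range. It stood at 19.3, 6.97, 34.8 and 13.8 FPKM at Nampt++ status in rats 1 to 4, and at 17.4, 5.59, 65.7 and 115.2 in their Nampt+ samples, against 35, 19.1 and 15.5 in controls. Rats 1 and 2 had slightly less at Nampt+ status, and rats 3 and 4 had more. The mean was 51.0 ± 50.1 at Nampt+ and 18.7 ± 11.8 at Nampt++ status (SD, n = 4 each), against 23.2 ± 10.4 in controls (SD, n = 3).

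Gata2, the transcription factor, stood at 1.46, 0.755, 4.06 and 1.48 FPKM in the Nampt++ samples and at 1.77, 0.728, 4.87 and 8.85 in the Nampt+ samples of rats 1 to 4. The controls had 3.31, 2.00 and 0.961. Rat 3 was high at both statuses, while rat 4 was high at Nampt+ status alone. The mean was 4.05 ± 3.65 at Nampt+ and 1.94 ± 1.45 at Nampt++ status (SD, n = 4 each), against 2.09 ± 1.18 in controls (SD, n = 3). Il4 was counted in 1 sample alone, the Nampt+ sample of rat 4, with 25 reads and 0.697 FPKM. The other 10 samples had 0 reads, which allows up to 3 reads in each by counting error.

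**Figure D1:**
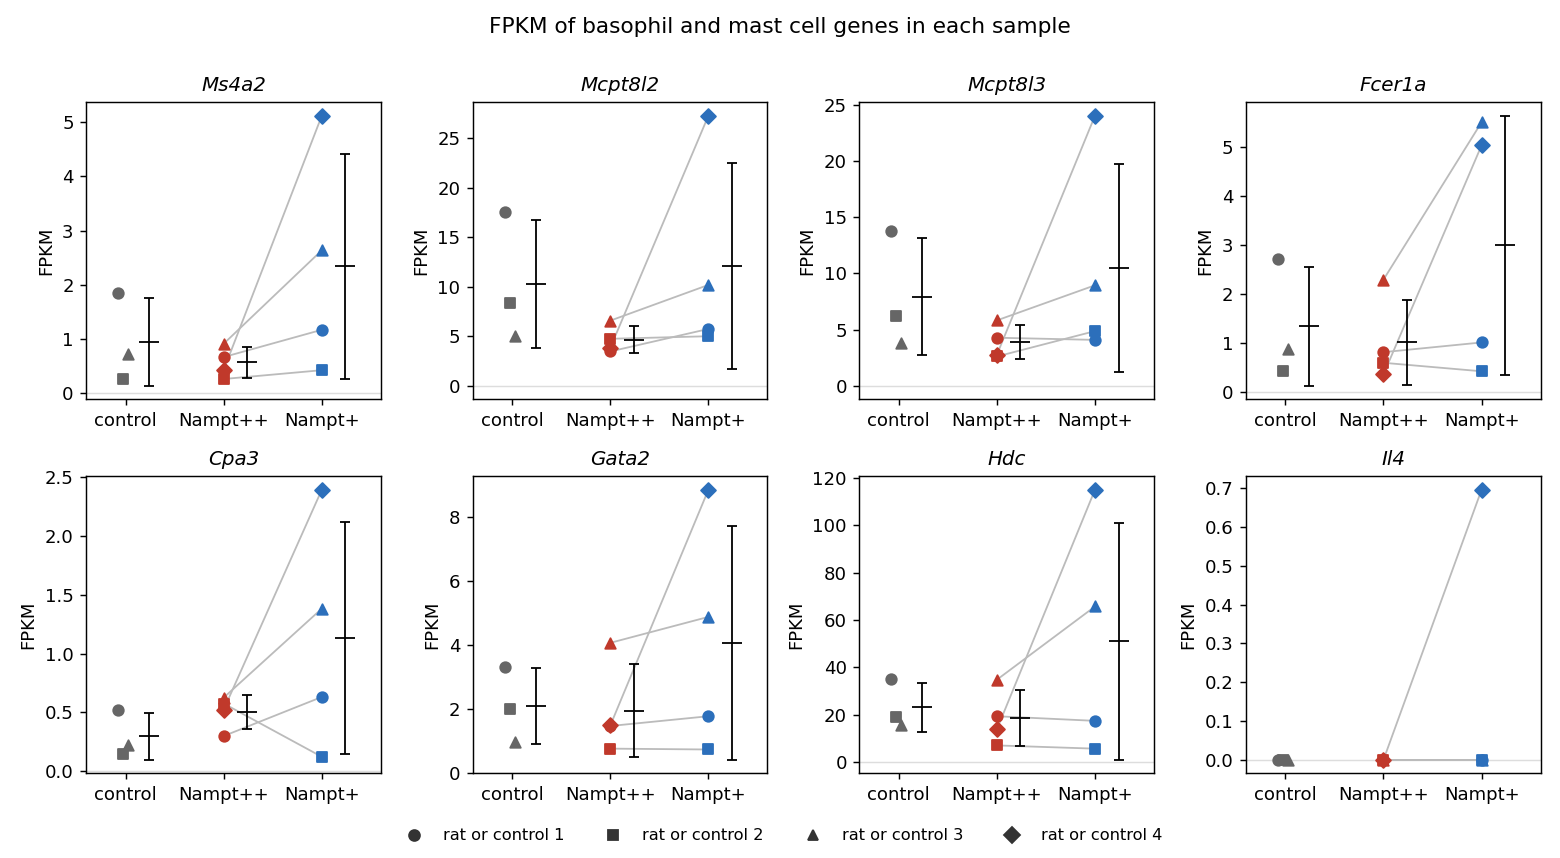
FPKM of each of the 8 genes (vertical axes, linear) in controls, Nampt++ samples and Nampt+ samples (horizontal axes), with points for single samples, grey lines joining both samples of a CIA rat, and bars for the mean and SD of the group, left out for Il4. The Nampt+ sample of rat 4 stands highest for every gene but Fcer1a, and the Nampt+ sample of rat 3 lies above all Nampt++ samples and controls for Ms4a2, Fcer1a, Cpa3, Gata2 and Hdc. The Nampt+ samples of rats 1 and 2 lie among or below them, apart from Cpa3 in rat 1, at 0.631 against 0.625 FPKM at most.

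Samples of the same number were taken as 1 rat. Compared by FPKM within each rat, the genes rose and fell by amounts that depended on the rat. In rat 4, all 8 genes were higher at Nampt+ than at Nampt++ status, and the 7 genes with reads in both samples had ratios from 4.57 for Cpa3 to 14.4 for Fcer1a, with a median of 8.37. In rat 3 the 7 genes were also all higher, by ratios of 1.20 to 2.90 with a median of 1.89. In rat 1, 5 were higher and 2 lower, with a median ratio of 1.25, and in rat 2, 3 were higher and 4 lower, with a median of 0.964. Ms4a2 and Mcpt8l2 were higher at Nampt+ status in each of the 4 rats, and Mcpt8l3, Fcer1a, Cpa3 and Gata2 in 3 of 4.

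The ratios of all genes moved as well in some rats, which bears on these values. The median ratio over the 11242 genes with a mean of at least 1 FPKM was 1.02 in rat 1, 0.658 in rat 2, 1.23 in rat 3 and 0.994 in rat 4. Of these genes 51.5%, 21.3%, 72.2% and 49.5% were higher at Nampt+ status in rats 1 to 4. The 8.37 of rat 4 thus stood beside a median of all genes near 1, and the 1.89 of rat 3 beside a median of 1.23. Hemoglobin took 37.3% and 42.8% of the counts in both samples of rat 2, and 6.84% and then 25.9% in rat 1. With hemoglobin reads left out of the totals, the median ratios were 1.57, 1.06, 1.85 and 9.06 in rats 1 to 4. By these values 7, 4, 7 and 8 genes were higher at Nampt+ status. Leaving out these reads rescales all other genes of a rat by the same factor. The medians and shares of all genes given above are without this step and would shift with it.

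**Figure D2:**
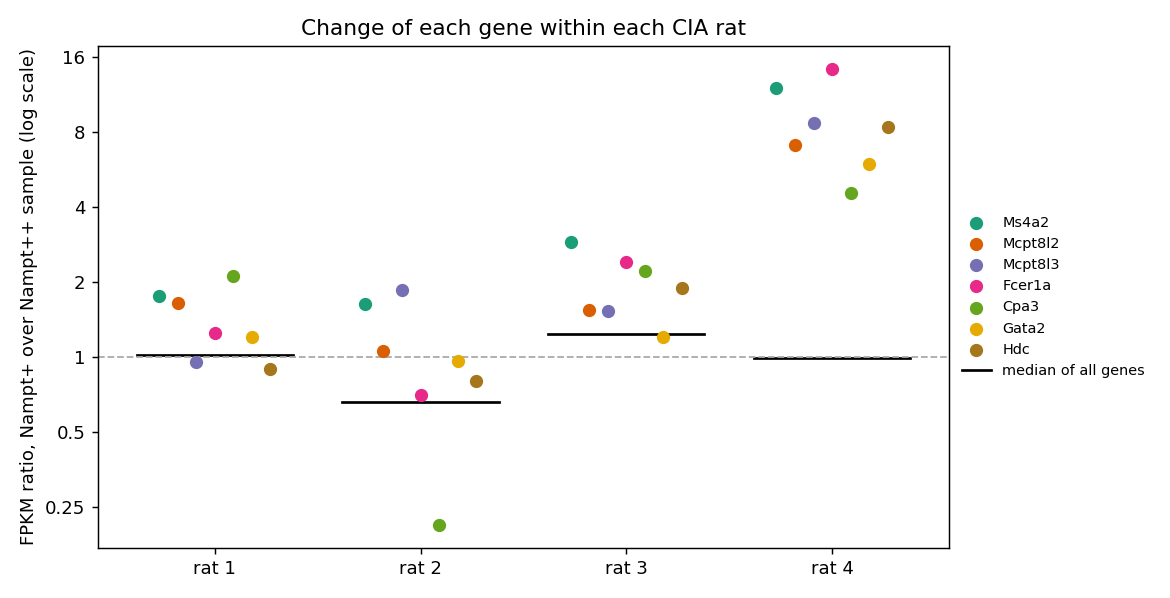
Ratio of FPKM in the Nampt+ sample to that in the Nampt++ sample of the same rat (vertical axis, log scale) for 7 genes in each of 4 CIA rats (horizontal axis), with a black line for the median of all genes and a dashed line at equal levels. Rat 4 lies between 4.57 and 14.4 for all 7 genes, rat 3 between 1.20 and 2.90, and rats 1 and 2 lie on both sides of 1.

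Across all genes, edgeR's quasi-likelihood test of Nampt+ against Nampt++ samples, which calls a gene when the group means of FPKM differ by a ratio above 2 or below 0.5 with p under 0.05 before adjustment, called 72 of 11219 genes (0.642%), with 35 higher (0.312%). Ms4a2, Mcpt8l2 and Mcpt8l3 were 3 of these, which the choice of these genes favors, so their calls are a description. The other genes in the fit, Fcer1a, Gata2 and Hdc, were not called. None of the 6 had groups that did not overlap, against 0.41% of all genes. Cpa3 and Il4 were below the mean of 1 FPKM needed for the test. The main fit took both samples of a rat as independent. With the rat as a replicate block, that is, comparing both samples of a rat, 56 genes were called and Ms4a2 was the 1 left of the 8. Without the Nampt+ sample of rat 4, Mcpt8l2 and Mcpt8l3 were no longer called, and Ms4a2, with a ratio of 2.49, fell below the mean of 1 FPKM and was not tested. Without the Nampt++ sample of rat 3, 73 of 11251 genes were called. Of the 8 genes described here 6 were among them, in the comparison that chose 3 of them. No gene had an adjusted p under 0.05 by edgeR, while 256 had an unadjusted p under 0.05 and DESeq2 gave 5 genes with an adjusted p under 0.05.

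The comparison with controls asked whether these genes left the level of healthy rats. It shares the controls between both CIA groups, and its CIA samples are those that chose 3 of the genes. That choice favors low values at Nampt++ and high values at Nampt+ status. Calls and fold changes of Ms4a2, Mcpt8l2 and Mcpt8l3 against controls are therefore a description and no test. In Nampt++ samples, 77 of 11219 genes were called (0.686%), 40 of them lower than controls (0.357%), and of the 5 genes tested here Mcpt8l2 was called lower. Its ratio to controls was 0.453 and that of Mcpt8l3 0.487, with log2 fold changes of -1.20 (SE 0.50) and -1.11 (SE 0.51). The Nampt++ samples overlapped the controls for both, as control 3 lay below the Nampt++ sample of rat 3, and 0 of the 5 genes were free of overlap, against 1.1% of all genes. Mcpt8l2 was no longer called when control 1, control 2 or the Nampt++ sample of rat 1, 2 or 4 was left out, or when all groups were fitted together.

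In Nampt+ samples, 56 of 11269 genes were called against controls (0.497%), 24 of them higher (0.213%), and none of the 6 genes tested here was among them by edgeR. The groups overlapped for each of the 6, while 0.444% of all genes had none. At an unadjusted p under 0.05, edgeR found 98 genes in this comparison, and DESeq2 gave 4 with an adjusted p under 0.05, with none of the 8 genes called by either. The ratios of Nampt+ to control means were 2.48 for Ms4a2, 1.17 for Mcpt8l2, 1.32 for Mcpt8l3, 2.25 for Fcer1a, 3.83 for Cpa3, 1.94 for Gata2 and 2.20 for Hdc. Without the Nampt+ sample of rat 4 those of Mcpt8l2 and Mcpt8l3 were 0.678 and 0.751, and Ms4a2 was called higher when control 1 was left out. Control 1 ranked 3 of 11 samples in the mean score over genes described below, above 4 of 4 Nampt++ samples and 2 of 4 Nampt+ samples, and hemoglobin took 30.1% of its counts.

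For the genes that the Nampt+ against Nampt++ comparison had not picked, the differences from controls were within the spread between rats. On the log2(FPKM + 1) scale, which understates the change of low genes, Fcer1a differed from controls by -0.18 in Nampt++ samples (exact permutation p = 0.600, n = 4 and 3) and by 0.60 in Nampt+ samples (exact permutation p = 0.429). Cpa3 differed by 0.22 (exact permutation p = 0.171) and 0.61 (exact permutation p = 0.286). Gata2 differed by -0.12 (exact permutation p = 0.8) and 0.47 (exact permutation p = 0.543). Hdc differed by -0.42 (exact permutation p = 0.486) and 0.45 (exact permutation p = 0.743). The tests were two-sided, and 0.0286 is the smallest p that 4 against 3 samples allow. The log2 fold changes by edgeR in Nampt+ samples were 1.01 (SE 0.86) for Fcer1a, 0.71 (SE 0.71) for Gata2 and 0.90 (SE 0.77) for Hdc, errors that leave room for no difference as well as for a rise. Their adjusted p in edgeR over all genes tested was 1.

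The 7 genes other than Il4 went up and down together over the samples. For each pair of them the correlation of log2(FPKM + 1) was computed over 11 samples, of which 8 are pairs from 4 rats and all share the scaling by the library total, and it is given as a description. Over the 21 pairs, Pearson's r had a median of 0.839 and ranged from 0.672 to 0.968, and Spearman's rho had a median of 0.709 and ranged from 0.245 to 0.918. Gata2 and Hdc formed the closest pair, with r = 0.968 and rho = 0.918. The proteases Mcpt8l2 and Mcpt8l3 had r = 0.961 and rho = 0.855, and the receptor chains Ms4a2 and Fcer1a had r = 0.923 and rho = 0.90. The loosest pair was Cpa3 with Mcpt8l3, with r = 0.672 and rho = 0.245.

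Against the genes of the table, with the other members counted among them, such values were uncommon. Ms4a2, Mcpt8l2 and Mcpt8l3 were chosen in these same samples for being higher at Nampt+ status. That choice can by itself raise their r with each other, so the shares below are a description and no test. The median r of each of the 7 genes with the other genes of at least 1 FPKM lay between 0.104 for Mcpt8l2 and 0.379 for Hdc. The share of those genes with an r at least as high as the gene's median r with the other members was 0.107% for Mcpt8l3 and 0.418% for Hdc, with the other 5 in between. The ratio of Fcer1a to Ms4a2 varied less than either gene: its SD on the log2 scale was 0.57, against 1.45 for Fcer1a and 1.37 for Ms4a2. The ratio of Hdc to Gata2 lay between 7.68 and 16.1 in every sample.

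Part of the common movement rested on few samples. Without the Nampt+ sample of rat 4 the median r of the pairs was 0.728, with a range from 0.272 to 0.946, and it was 0.639 when that of rat 3, the next farthest from the middle of the mean score described below, was dropped as well, the pairs ranging from -0.05 to 0.918. In the 7 samples of controls and Nampt++ rats, each from another animal, it was 0.675, with a range from -0.00 to 0.922. In the 7 samples of controls and Nampt+ rats it was 0.904. With hemoglobin reads left out it was 0.817. By Pearson's r the lowest pair was near 0 in the sets without the Nampt+ samples of both rats 3 and 4. By r the closest pair stayed above 0.9 in each of these sets. By Spearman's rho the common movement was looser there, and the lowest pair ran in opposite directions. Median rho fell to 0.517 once these Nampt+ samples were dropped, with pairs from -0.30 to 0.85. Dropping every sample of rats 3 and 4 gave 0.464, with pairs from -0.39 to 0.893. Controls with Nampt++ samples gave 0.536, with pairs from -0.32 to 0.893.

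For a mean score, the values of log2(FPKM + 1) of the 6 genes with a mean of at least 1 FPKM were set to a mean of 0 and an SD of 1 over samples and averaged. The score was 2.01 in the Nampt+ sample of rat 4, 1.06 in that of rat 3 and 0.862 in control 1, which were the highest 3. It was -0.265 and -0.843 in the Nampt+ samples of rats 1 and 2, and -0.508, -0.959, 0.263 and -0.776 in the Nampt++ samples of rats 1 to 4. Controls 2 and 3 had -0.311 and -0.534. Rat 2 was lowest in both groups, and rat 3 highest of the Nampt++ samples and second of the Nampt+ samples.

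The gene most like this score among 11236 others was Enpp3, with r = 0.954 and rho = 0.918 over 11 samples. It encodes CD203c, an enzyme of the surface of basophils and mast cells. Likeness was ranked by the smaller of r and rho, of which the median over all genes was 0.227, and 32 genes exceeded 0.8. Enpp3 stood at 24.6 and 11.2 FPKM in the Nampt+ samples of rats 4 and 3 and at 1.45 to 6.35 in the other 9 samples. The ranking picked Enpp3 for following a score that was highest in these same Nampt+ samples, so this gap is a description. The next were Ptp4a1, Rab11fip2, RF00152, Fkbp5, Cd69, RF01241, Arl5b, RGD1308564 and Fam204a, with r from 0.855 to 0.907. Cd69, an activation antigen of many leukocytes, stood at 282 FPKM in the Nampt+ sample of rat 4 and between 54.8 and 172.2 in the others. Without the Nampt+ sample of rat 4, the r of these 10 genes was between 0.771 for Cd69 and 0.935 for Rab11fip2.

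**Figure D3:**
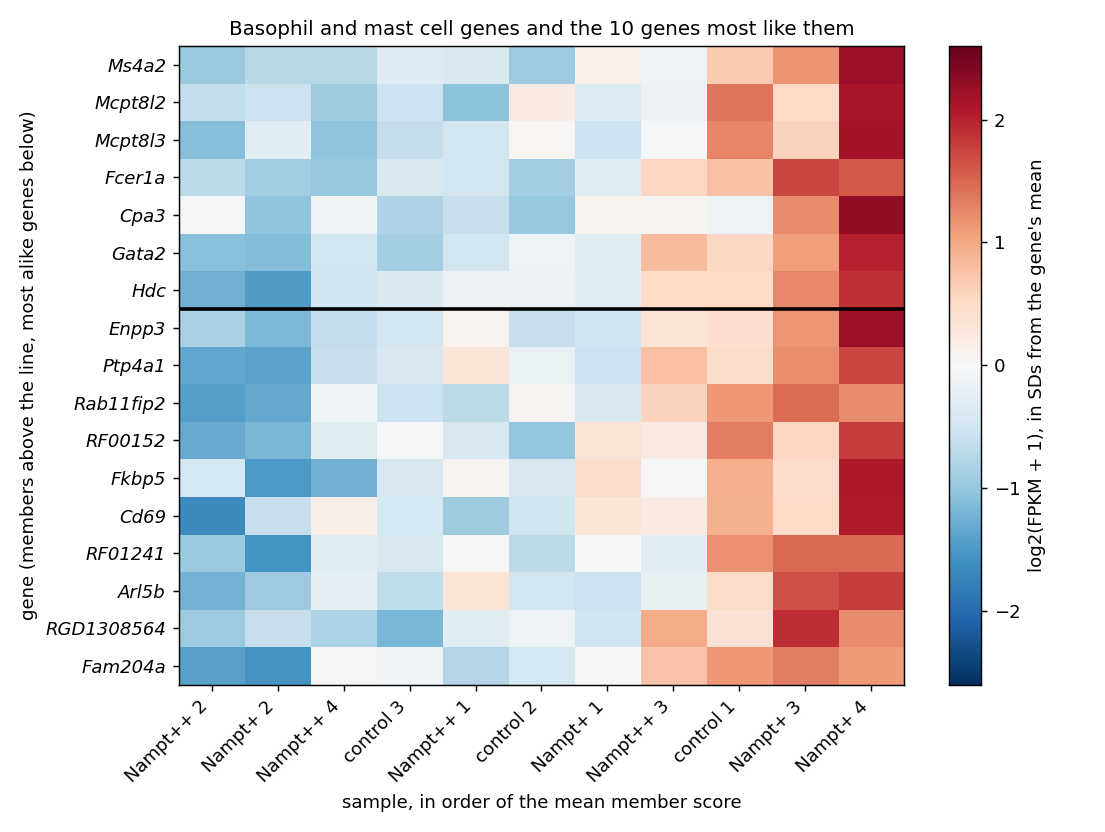
Level of 7 of the genes (rows above the line) and the 10 genes most like their mean score (rows below it) in 11 samples (columns, ordered by the score), as log2(FPKM + 1) in SDs from each gene's mean (color). The Nampt+ samples of rats 4 and 3 and control 1 are red in nearly all rows, and both samples of rat 2 are blue in most.

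Other genes of these cells were looked at in lists. The surface receptors held 3 genes with a likeness above 0.8, namely Enpp3, Cd69 and Il1rl1, of 10 that could be ranked. The others followed the score less, with r = 0.559 for Il18r1, 0.518 for Cd200r1, 0.386 for Ccr3 and 0.377 for Il3ra. Csf2rb had r = 0.233 and Crlf2 -0.125. Cd63, the second highest of the list by mean FPKM, had r = 0.164. Il1rl1, the receptor of interleukin 33, ranked 11 with r = 0.881 and rho = 0.855 and stood at 3.74 FPKM in the Nampt+ sample of rat 4, at 1.99 in that of rat 3 and at 0.214 to 1.85 elsewhere. Among granule proteases, Mcpt1l4, which lies in the same cluster on chromosome 15, had r = 0.930 and rho = 0.709. It stood at 20.7 FPKM in the Nampt+ sample of rat 4 and at 1.33 to 8.37 in the others. In the same cluster, Mcpt1l1 and Cma1, a chymase of mast cells, which lie beside Mcpt8l2, had r = -0.479 and 0.220. The proteases of the cluster therefore did not all share the pattern.

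The shared signalling parts of the IgE receptor did not share it either. Over 19 genes of IgE receptor signalling the median r with the score was 0.241, from -0.02 for Lyn to 0.572 for Plcg1. The gamma chain Fcer1g, which serves Fc receptors of many leukocytes, had r = 0.0387 and stood between 413 and 1468 FPKM. In the Nampt+ against Nampt++ comparison, 0 of the 19 were called higher and 1 lower, the kinase Syk, beside 0.33% of all genes called lower, with a median log2 fold change of 0.10 beside -0.00 for all genes. Syk, which carries the signal of the receptor and of many others, stood at 10.4, 6.38, 15 and 18.6 FPKM in the Nampt+ samples and at 19.6, 39.7, 50.8 and 49.4 in the Nampt++ samples of rats 1 to 4. These groups did not overlap, as held for 0.41% of all genes. The log2 fold change was -1.67 (SE 0.33, edgeR adjusted p = 1, lower in 4 of 4 rats), and against controls, where Syk was also called, it was -1.58 (SE 0.43, edgeR adjusted p = 1). Lat, the adaptor with the second highest mean level of the list, stood at 48.6 to 149 FPKM with r = 0.409.

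Of the other lists, Srgn, the granule proteoglycan serglycin that many leukocytes make, had r = 0.0994. Slc18a2, which loads histamine into granules, had r = -0.172 and was the 1 histamine gene above 1 FPKM on average beside Hdc. Hrh1, the next of that list, had a mean of 0.0673 FPKM. In lipid mediators the highest genes were Alox5ap and Ptgs2, with r = 0.16 and 0.328, and in transcription factors Irf8 and Lyl1, with r = 0.382 and -0.339. Gata1, which basophils, mast cells and red cell precursors share, had r = -0.423. Among cytokines Il5, Il9 and Il3 had no reads, and the chemokines Ccl3 and Ccl4, which had the highest means, had r = -0.155 and 0.446. Il13 stood at 0.962 FPKM in the Nampt++ sample of rat 1. It was at 0.563 and 0.960 in the Nampt+ samples of rats 1 and 4 and at 0 to 0.105 in the others. Besides Syk, no gene of the lists of proteases, histamine, lipid mediators, cytokines, receptors and transcription factors was called by edgeR in any of the 3 comparisons. At an unadjusted p under 0.05 they held 1 gene, Cd69, higher in Nampt+ than in Nampt++ samples by a log2 fold change of 0.81 (SE 0.31).

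**Figure D4:**
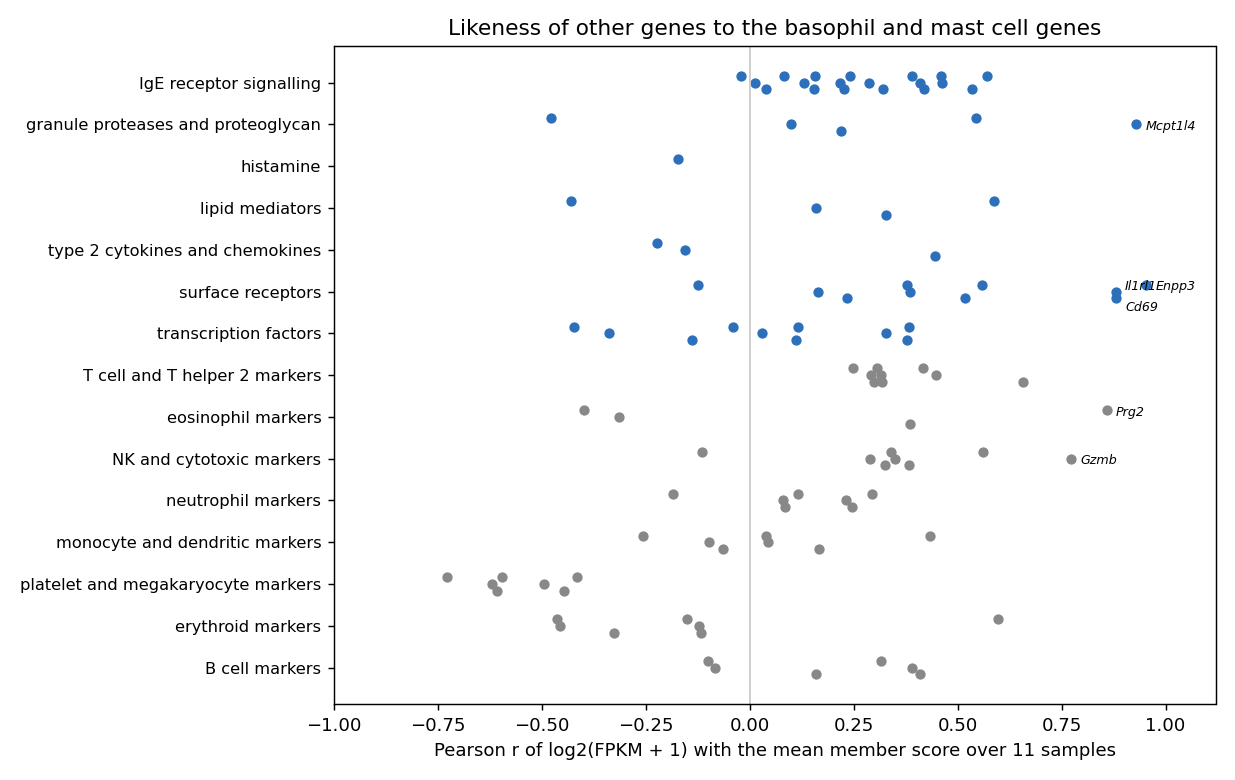
Pearson's r of log2(FPKM + 1) with the mean score over 11 samples (horizontal axis) for the 106 genes of 15 lists that had a mean of at least 1 FPKM (rows are lists, blue for genes of basophil and mast cell biology, grey for markers of other cells). Enpp3, Mcpt1l4, Il1rl1, Cd69, Prg2 and Gzmb lie above 0.7, the receptor signalling genes lie between -0.02 and 0.572, and all 7 platelet genes lie below 0.

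The name given to these genes was checked against defining markers. The mast cell tryptases Tpsab1, Tpsb2 and Tpsg1 had no reads in any sample, and Kit, the receptor that mast cells depend on, stood at 0.0387 to 0.474 FPKM. The mast cell protease Mcpt2 stood at 0.217 to 3.23 FPKM with r = 0.545. Cma1, the chymase of mast cells named above, stood at 0.434 to 3.74 FPKM. Of these markers the tryptases were thus at 0 and Kit under 0.5 FPKM, while Mcpt2 and Cma1 had means of 1.59 and 2.08 FPKM, beside 1.31 for Ms4a2 and 1.82 for Fcer1a. Gata2, Cpa3 and Hdc are not made by these cells alone. Mcpt1, Mcpt3, Mcpt8, Mcpt9, Mcpt10, Mcpt4l1, Il7r, Ccr2 and Cd79a are not symbols of the table and were not analysed here.

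Markers of other cells moved with the genes in part. Of 4 eosinophil markers with at least 1 FPKM, Prg2, which encodes the major basic protein and is also found in basophils, had r = 0.858 and rho = 0.691 and stood at 14.3 FPKM in the Nampt+ sample of rat 4, while Epx, the peroxidase that defines eosinophils, stood at 0 to 0.52 FPKM and Alox15 had r = -0.314. The summed level of the eosinophil list was 383 to 676 FPKM in controls, 114 to 826 in Nampt++ samples and 236 to 3175 in Nampt+ samples, nearly all of it Alox15. Of 8 NK and cytotoxic markers Gzmb had r = 0.773, and the other 7 had r from -0.114 to 0.562. The 9 T cell and T helper 2 markers had r from 0.249 to 0.656, highest for Cd5.

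Platelet and megakaryocyte markers went the other way. All 7 had a negative r with the score, the lowest at -0.728 for Pf4. Their summed level was 3587 to 6878 FPKM in controls, 4947 to 9868 in Nampt++ samples and 1791 to 15945 in Nampt+ samples, and it was lowest in the Nampt+ sample of rat 3. Of the 7 erythroid markers 6 had a negative r, with a median of -0.152. Neutrophil markers had a median r of 0.115, monocyte and dendritic markers 0.0388 and B cell markers 0.238. The part of these cells in the common movement was not tested. None of the marker lists held a called gene in the Nampt+ against Nampt++ comparison, and the 1 called against controls was Ppbp, a platelet chemokine, lower in Nampt++ samples with a log2 fold change of -1.09 (SE 0.40, edgeR adjusted p = 1), from 16.9 ± 9.0 (SD, n = 3) in controls to 7.48 ± 3.12 (SD, n = 4).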

How the data were processed

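The deposited table holds, for each gene and sample, the number of reads that the authors counted (counts, not normalized) and the FPKM made by the authors. Per the labels the tools were cutadapt 1.9, HISAT2 2.0.4 and StringTie 1.3.4. The genome build, the annotation and the handling of strand and of shared reads are not given in the sources used here. An FPKM of 0.0001 stands for 0 and was read as 0.

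Pairs of groups were compared with edgeR 4.0.16 (quasi-likelihood, TMM) on counts of genes with a mean of at least 1 FPKM, with Benjamini-Hochberg adjustment over all of them. Calls needed group means of FPKM that differed by a ratio above 2 or below 0.5 and p under 0.05 before adjustment, the thresholds of the study. Single differences from controls used a two-sided exact permutation test of log2(FPKM + 1) in scipy 1.17.1. The tests were tried on simulated counts. Alternatives used DESeq2 1.42.0 and limma 3.58.1. The members and gene lists were chosen with earlier results of these data known. Named genes are the members, called genes of the lists, the 2 highest of each list of these cells and the 10 most alike. Il1rl1, Il13, Mcpt1l4, Mcpt1l1, Cma1, Mcpt2, Prg2, Gzmb, Cd5, Plcg1, Lyn, Gata1, Slc18a2, Pf4 and markers at or near 0 were named after their values were seen. So were the surface receptors Il18r1, Cd200r1, Ccr3, Il3ra, Csf2rb and Crlf2.

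Samples of both statuses with the same number were taken to come from 1 rat and were paired by it in the replicate block. The paper states that the same rats were sampled at both statuses, and the labels number the samples alike. Neither states outright that equal numbers mark the same animal, so the pairing is inferred. Deviations of the paired samples from the group means correlated by -0.268, -0.24, 0.234 and 0.086 in rats 1 to 4. Controls share only numbers with the CIA rats. Nothing was deposited on cultures or batches. In the main fits against controls, p-values measure the spread between these animals. Those of Nampt+ against Nampt++ samples, apart from the replicate block, take both samples of a rat as independent and ignore the pairing. Between any 2 samples the counts of at least 16391 genes differed, which was not compared with sampling noise.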

Additional observations from a re-analysis of the deposited data

Results flagged for a closer look

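Il4 stood apart in 1 sample. It was at 0 in 3 of the 4 Nampt+ samples and at 0.697 FPKM in that of rat 4, from 25 reads, so that the gap made up the whole range of the group. In this way 15 groups of values of the 8 genes were looked at, with 4 samples each. Il4 at Nampt+ status was the 1 that exceeded Dixon's critical value for 4 samples. With 3 values at 0 and 1 above it, this outcome was fixed in advance. The rate of about 1 of 20 groups that chance alone passes holds for continuous values and does not apply to it. The Nampt+ sample of rat 4 was also the highest of all for Ms4a2, Mcpt8l2, Mcpt8l3, Cpa3, Gata2 and Hdc.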

How the results depend on the processing

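Between Nampt+ and Nampt++ samples, 295 genes were called with no filter and 19 with a mean of at least 10 FPKM, and of the 8 genes 0 were called with the latter, which left Hdc as the 1 tested, and 1 with the replicate block, which paired the samples by rat and called 56 genes. Against controls, Nampt++ samples had 121 called genes by DESeq2, 145 by limma, 306 with no filter and 25 at 10 FPKM, and 2 of the 8 genes with upper quartile scaling, 2 by DESeq2, 0 at 10 FPKM, where again Hdc alone was tested, and 0 with all groups in one fit. Nampt+ samples had 261 and 14 called genes with no filter and at 10 FPKM. Leaving out 1 sample gave 58 to 165, 53 to 462 and 49 to 136 called genes in the 3 comparisons, with 0 to 6, 0 to 2 and 0 to 1 of the 8 genes. The highest of these were without Nampt+ rat 2, control 2 and control 2. The cause was not tested, beyond the number of genes tested under each filter. The median r of the genes was 0.728 to 0.857 without 1 sample, 0.713 without both samples of rat 4, 0.639 without the Nampt+ samples of rats 3 and 4, 0.71 without both samples of rats 3 and 4 and 0.675 in controls with Nampt++ samples, subsets chosen after seeing the data except for that without the Nampt+ sample of rat 4. The log2 fold change turned its sign in 7 of the other fits. Against controls, leaving out 1 sample gave values from -0.94 to 0.21 for Gata2 and -0.94 to 0.00094 for Hdc in Nampt++ samples, above 0 without control 1 and, for Gata2 at 0.03, without Nampt++ rat 2. In Nampt+ samples it gave -0.52 to 0.64 for Mcpt8l2 and -0.33 to 0.87 for Mcpt8l3, below 0 without Nampt+ rat 4 and, at -0.30 and -0.12, without control 3. The other 204 values kept their direction and side of the threshold, while 9 passed it anew and 14 no longer did. The exact permutation tests had 90 alternatives on their side of the threshold, though with a sample left out no p under 0.05 is possible. By depth the least certain values are those of Cpa3, with a counting error of up to 25.8%, and Il4, with 25 reads in 1 sample.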
